A study of Mus musculus with 18 samples.

Results

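The regions described here were low-methylated, CpG-poor stretches of mouse autosomes that lay away from gene starts. A region was a 1 kb bin with between 10 and 39 listed cytosine positions over the 18 libraries, more than 5 kb from every gene start of the GENCODE models. The bins were chosen by their methylation in control cells: between 10% and 40% of at least 30 calls in the 4 pooled control libraries of days 1 and 3. That rule gave 3124 bins, 2.12% of the 147326 bins that met every other criterion. CpG-poor refers only to the upper limit of 39 listed positions. Members had a median of 16 CpGs per bin, against 14 in all bins that met the other criteria. The autosomes held 2327755 bins with any listed cytosine. Among the bins that met the other criteria, 385 were under 10%, 16645 were over 40% and under 70%, and 127172 were at 70% or more, and these served for comparison. The control values of days 1 and 3 were used by the rule and are given as a description only. Methylation in control libraries of days 6 to 11 and in Dnmt1 KO libraries was not used to choose the bins, although all 18 libraries entered the count of cytosine positions.

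The cells were mouse embryonic stem cells (ESCs) grown in serum and LIF, and CpG methylation had been read by bisulfite sequencing of the whole genome. Control libraries carried a wild-type genotype in the labels, and Dnmt1 KO libraries came from cells in which floxed Dnmt1 was deleted by a Cre induced with tamoxifen. Each genotype was sampled at days 1, 3, 6, 9 and 11, with 2 libraries per day except at day 6, which had 1. The labels gave E14 as the background strain of all 18 libraries and the methods gave C57BL/6 for the floxed line, so the deletion and a difference between lines cannot be told apart. Whether control cells received tamoxifen is not given in the sources used here. Repeats were described as biological replicates without a word on separate cultures, so p-values measure the spread between these libraries.

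DNMT1 copies methylation onto the new DNA strand after replication, and cells without it dilute their methylation with each division. Most CpGs of ESCs outside CpG islands are highly methylated. Short stretches of intermediate to low methylation away from promoters, known as low-methylated regions, are a known feature of enhancers and of other sites where transcription factors occupy DNA. The bins here were defined by methylation and position alone, with no data on chromatin or factor binding.

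Libraries held between 7190722 and 11158414 calls, or 1.2 to 1.25 calls per listed cytosine, so single CpGs were not compared. A member had a median of 38 calls in the 5 control libraries of days 6 to 11 and of 33 in the 5 Dnmt1 KO libraries. In the mitochondrial genome, a background for incomplete conversion, 0.228% to 0.467% of calls were methylated. The deletion was visible in the coverage of Dnmt1 (exons 4 to 5, chr9:20744920-20746027): 69 calls in the 9 control libraries, 2 in Dnmt1 KO at day 1 and 0 in the other 7 Dnmt1 KO libraries. Near the members, 25 bins had more than 3 times the median calls per position, the deepest in ribosomal DNA on chromosome 17, and these deep bins are left out where stated.

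The sequences of 6 members are shown as the 300 bases of the bin with the most CpGs, on the forward strand of NCBIM37, with CpGs in capitals. They stand for the kinds of members described further on: a run of adjacent members, members near Nanog and Pou5f1, the member with the lowest p, and the member with the highest level in Dnmt1 KO at days 6 to 11.
Uck2 intron, chr1:169200510-169200809: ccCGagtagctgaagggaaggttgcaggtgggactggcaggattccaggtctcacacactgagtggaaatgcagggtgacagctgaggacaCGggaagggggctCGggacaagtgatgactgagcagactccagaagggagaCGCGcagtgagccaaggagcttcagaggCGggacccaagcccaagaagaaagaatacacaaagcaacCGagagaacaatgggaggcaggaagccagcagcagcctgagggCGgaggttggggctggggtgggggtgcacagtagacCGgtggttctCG
Near Nanog, in Slc2a3, chr6:122690179-122690478: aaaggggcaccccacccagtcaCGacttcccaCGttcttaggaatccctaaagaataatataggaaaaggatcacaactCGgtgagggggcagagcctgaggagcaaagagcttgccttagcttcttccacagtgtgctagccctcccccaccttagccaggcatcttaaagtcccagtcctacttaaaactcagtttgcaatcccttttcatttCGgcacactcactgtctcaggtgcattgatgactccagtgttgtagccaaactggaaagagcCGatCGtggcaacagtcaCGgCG
Near Nanog, further into Slc2a3, chr6:122713669-122713968: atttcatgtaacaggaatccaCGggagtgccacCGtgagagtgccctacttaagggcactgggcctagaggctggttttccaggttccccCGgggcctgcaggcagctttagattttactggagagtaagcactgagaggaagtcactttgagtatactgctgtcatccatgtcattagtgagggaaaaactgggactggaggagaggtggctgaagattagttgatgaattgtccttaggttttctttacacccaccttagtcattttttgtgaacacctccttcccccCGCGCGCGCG
Near Pou5f1, chr17:35681000-35681299: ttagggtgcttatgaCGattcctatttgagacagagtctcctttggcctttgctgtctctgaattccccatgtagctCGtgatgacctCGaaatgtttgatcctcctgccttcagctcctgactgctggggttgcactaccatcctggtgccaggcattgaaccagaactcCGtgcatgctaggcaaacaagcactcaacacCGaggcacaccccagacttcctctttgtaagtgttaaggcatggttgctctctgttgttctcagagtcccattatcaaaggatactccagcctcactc
Near C630050I24Rik, chr8:109634066-109634365: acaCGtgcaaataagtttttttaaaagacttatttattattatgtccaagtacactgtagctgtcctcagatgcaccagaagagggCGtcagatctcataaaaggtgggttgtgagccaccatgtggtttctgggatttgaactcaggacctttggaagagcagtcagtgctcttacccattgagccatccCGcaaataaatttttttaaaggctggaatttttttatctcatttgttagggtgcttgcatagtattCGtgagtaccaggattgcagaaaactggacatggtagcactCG
Nearest gene start Ube3a, chr7:66314010-66314309: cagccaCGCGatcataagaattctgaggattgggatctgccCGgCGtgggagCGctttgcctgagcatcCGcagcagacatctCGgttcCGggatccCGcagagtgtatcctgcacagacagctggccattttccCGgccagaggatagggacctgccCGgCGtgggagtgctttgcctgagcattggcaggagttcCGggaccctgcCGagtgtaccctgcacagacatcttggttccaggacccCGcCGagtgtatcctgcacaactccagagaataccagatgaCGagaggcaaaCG
CpGs in these stretches stood singly or in small clusters, from 5 in the stretch near Pou5f1 to 18 in the stretch on chromosome 7.

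Without Dnmt1 the members lost most of the methylation they had. In control libraries the members were methylated at 35.9% at day 6, at 33.0% and 31.1% at day 9, and at 27% and 26.8% at day 11. In Dnmt1 KO they were at 7.24% at day 6, at 7.94% and 8.59% at day 9, and at 8.18% and 8.87% at day 11. The groups did not overlap, and the lowest control library was far above the highest Dnmt1 KO library. The means were 30.8% ± 3.89 (SD, n = 5) in control and 8.17% ± 0.63 (SD, n = 5) in Dnmt1 KO. Averaged over the days, Dnmt1 KO minus control was -23.6 points (exact two-sided permutation test of genotype within day, 72 arrangements, p = 0.0278, adjusted p = 0.0278 over 7 tests). That p is the smallest these libraries can give.

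**Figure D1:**
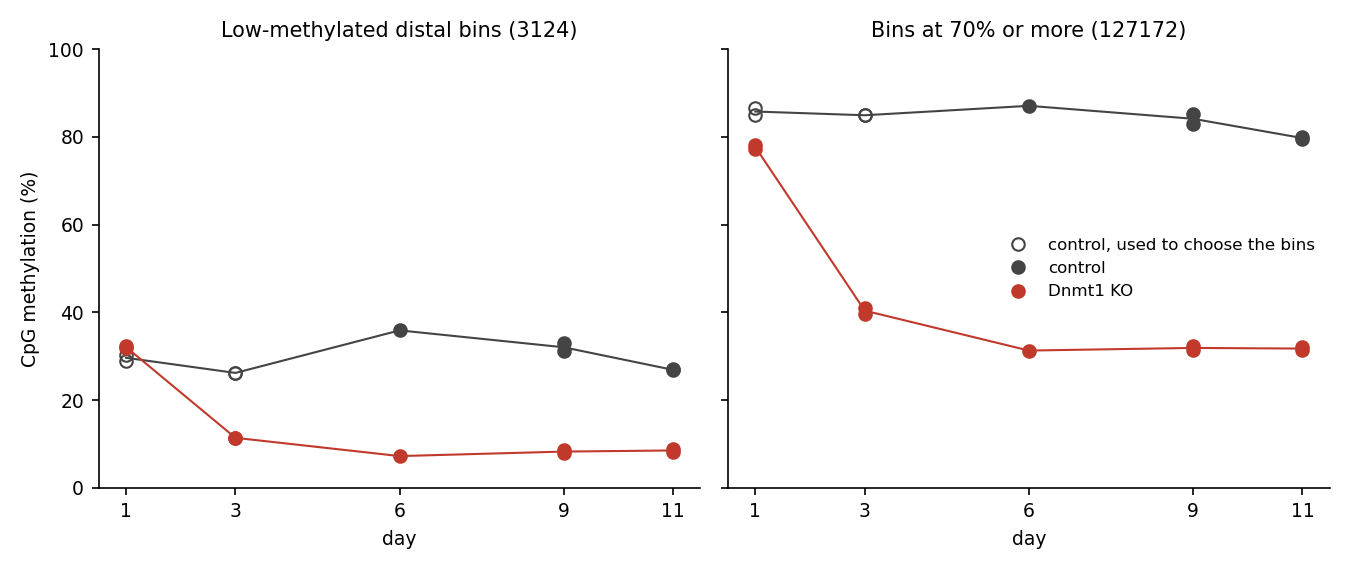
CpG methylation (percent of calls, y axis) by day (x axis) in the low-methylated bins (left) and in the bins at 70% or more (right). Each point is a library, lines join the means of a day, and open points mark the control libraries used to choose the bins. Dnmt1 KO members were at 31.8% and 32.4% at day 1 and at 7.24% to 8.87% from day 6, whereas control members stayed between 26.2% and 35.9%.

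Most of the loss had happened by day 3. Dnmt1 KO members stood at 32.4% and 31.8% at day 1 and at 11.4% in both libraries of day 3. The level thus fell by 20.7 points to 35.5% of that of day 1. By days 6 to 11 it fell by 3.23 points more, to 25.4% of day 1. The bins at 70% or more started at 77.3% and 78.1%, reached 39.7% and 41.1% at day 3, and had kept 40.8% of their day 1 level by days 6 to 11. Days 1 and 3 of Dnmt1 KO did not overlap in either class, and a comparison of 2 libraries with 2 cannot reach a p below 0.33. The control values that the rule used were 30.3% and 29% at day 1 and 26.2% in both libraries of day 3.

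Control members also differed between days, and the cause was not tested. Their level at day 11 was 75% of that at day 6, against 91.5% in the bins at 70% or more, whose control libraries were at 87.1% at day 6 and at 79.6% and 79.9% at day 11. The other classes also fell, to 77.3% in bins under 10% and 86.0% in bins over 40% and under 70%. In the flanking bins defined below it was 84.4%. Day 6 had a single control library, so this change has no replicate check at its start. The 2 libraries of day 9 lay between those of days 6 and 11 in the members and in the bins at 70% or more. Dnmt1 KO members were at 20.2% of the control level at day 6, at 25.8% at day 9 and at 31.7% at day 11.

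The members lost a larger share of their methylation than the comparison bins that began high. Over all autosomal calls, control libraries of days 6 to 11 were at 71.3% to 79.0% and Dnmt1 KO libraries at 24.2% to 25.6%. At days 6 to 11 Dnmt1 KO kept 26.6% of the control level in members, 29.4% in bins under 10%, 30.9% in bins over 40% and under 70%, and 38.2% in bins at 70% or more. The loss in points ran the other way, at -22.6 points in the members and -51.3 points in the bins at 70% or more. Member level as a percent of the level of bins at 70% or more was 41.2 at day 6, 38.7 and 37.5 at day 9, and 34 and 33.5 at day 11 in control libraries. In Dnmt1 KO it was 23.1 at day 6, 25.2 and 26.6 at day 9, and 26.0 and 27.7 at day 11. No Dnmt1 KO library reached the lowest control library. On the log2 scale this ratio differed by -0.57 in Dnmt1 KO (exact permutation test within day, p = 0.0278, adjusted p = 0.0278, the smallest possible). At day 1, before most of the loss, the Dnmt1 KO ratios were 41.9 and 40.7.

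The dip in methylation at the members remained without Dnmt1 and was deeper in relative terms. Flanks were taken as the 22161 non-member bins between 2 and 5 bins away on either side. Dnmt1 KO kept 33.4% of the control level in these flanks and 26.6% in the members, and the log2 ratio of member to flank level differed by -0.37 in Dnmt1 KO (exact permutation test within day, p = 0.0278, adjusted p = 0.0278). With at least 60 calls required by the rule it differed by -0.42 and did not pass (exact permutation test, p = 0.0833). The 25 deep bins held 10.1% of the flank calls of days 6 to 11. Without them the flanks were at 66.1% ± 4.22 (SD, n = 5) in control and 21.9% ± 0.731 in Dnmt1 KO, and the log2 ratio differed by -0.35 (exact permutation test, p = 0.0278). Members then stood at 50.4% of flank level at day 6, 48.2% and 46.1% at day 9, and 43.7% and 43.5% at day 11 in control libraries. The Dnmt1 KO values were 34.7% at day 6, 36.8% and 37.6% at day 9, and 37.6% and 39.8% at day 11, all below the lowest control value.

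**Figure D2:**
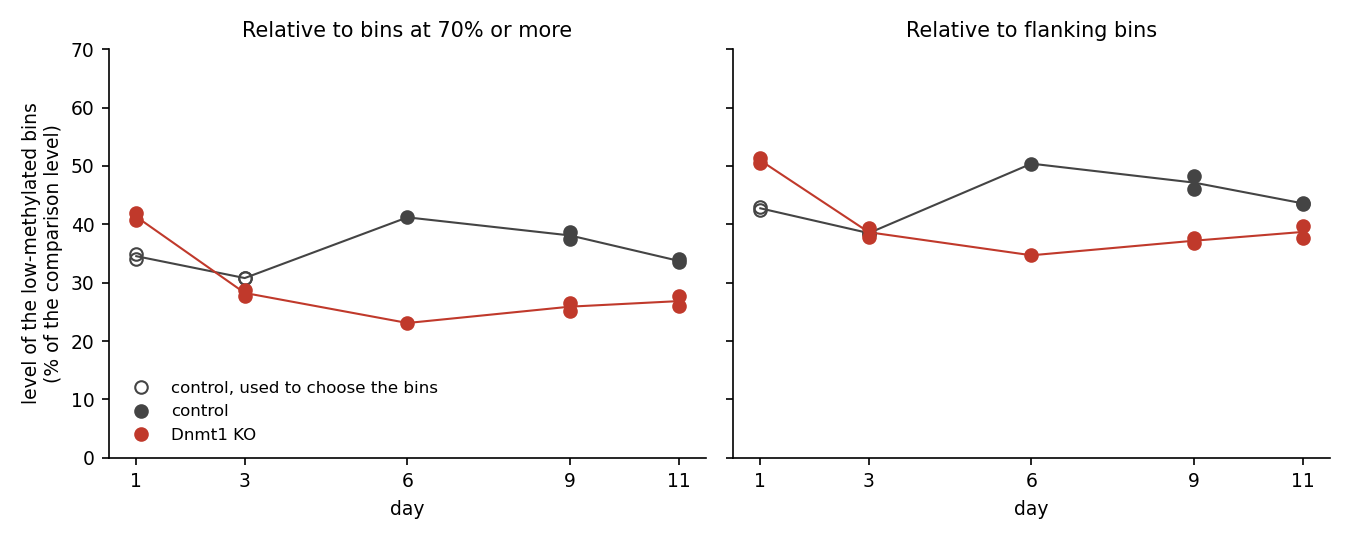
Level of the low-methylated bins as a percent (y axis) of the level of bins at 70% or more (left) and of the flanking bins without deep bins (right), by day (x axis). Each point is a library and lines join the means of a day. From day 6 on, the Dnmt1 KO libraries (23.1% to 27.7% on the left) lay under the control libraries (33.5% to 41.2%).

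The dip was narrow. With deep bins left out, control levels of days 6 to 11 were 30.8% ± 3.88 (SD, n = 5) at the members, 48.1% and 47.6% in the bins next to them, and 66.9% and 66.7% at 4 kb on either side. In Dnmt1 KO the levels were 8.21% ± 0.625 (SD, n = 5) at the members, 14.5% and 14.6% next to them, and 22.1% and 22.6% at 4 kb. Bins at 70% or more, which were also chosen by level, showed a small peak in place of a dip, at 83.0% in control and 31.8% in Dnmt1 KO. The surroundings of members were lower than those of the highly methylated bins even at 10 kb, where control levels were 63.1% and 62.9% against 73.6% and 73.5%. Dnmt1 KO showed the same order at 10 kb, with 21.4% and 21.1% around members against 26.8% and 26.7%. The rule kept gene starts out of the 5 kb around a bin, and control levels fell beyond that distance in both classes. From -5 kb to -7 kb they went from 65.6% to 62.0% around members and from 77.6% to 73.8% around highly methylated bins. Members were also closer to gene starts (median 19742 bp against 29524 bp), and what that added to the difference at 10 kb was not tested.

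**Figure D3:**
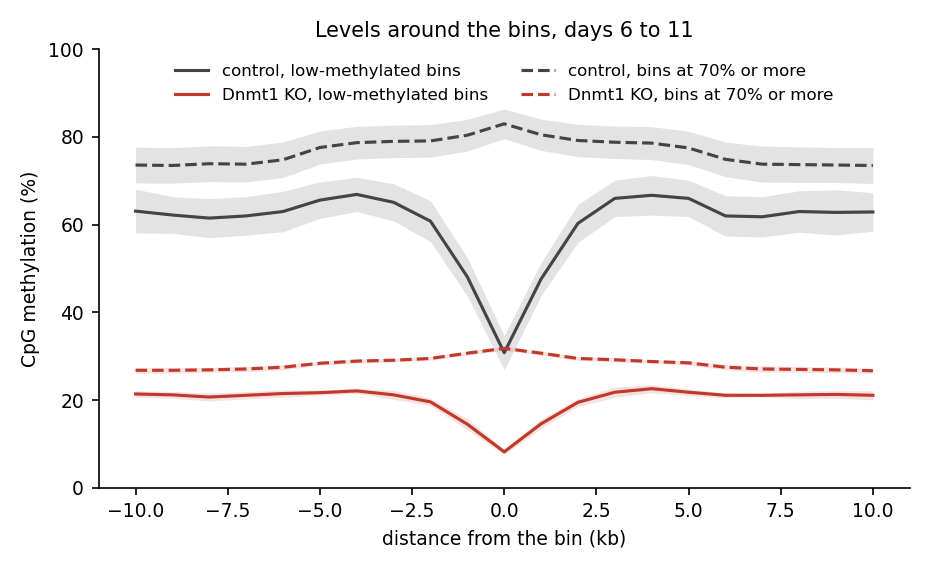
CpG methylation (y axis, percent) at distances of up to 10 kb on either side (x axis) of the low-methylated bins (solid lines) and of bins at 70% or more (dashed lines), days 6 to 11. Lines are means of 5 libraries, shading is ± 1 SD, and deep bins are left out. Around the members the level rose from 30.8% to over 66% in control and from 8.21% to over 22% in Dnmt1 KO within 4 kb.

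Among single bins, most members were lower in Dnmt1 KO. Of the 3124 members, 2524 had at least 20 calls in each genotype at days 6 to 11, and 2418 of them (95.8%) were lower in Dnmt1 KO, against 98.7% of all bins tested. With a quasi-binomial test of each bin, adjusted over all autosomal bins tested, 1307 members (51.8%) were at least 10 points lower at an adjusted p under 0.05, against 86.7% of all 568149 bins tested. No member was higher by the same rule, against 0.00458% of all bins. No member was higher at an unadjusted p under 0.05 either, against 1 of 328, 1 of 12773 and 0 of 95677 comparison bins. These are the comparison classes from lowest to highest level, and this count did not set members apart from them. The share over all bins tested was not computed for the unadjusted p. The median member went from 29.6% in control to 6.45% in Dnmt1 KO, and the median of all bins tested from 81.8% to 25.8%. The share of members called was thus below the background, and the median difference was -21.2 points in members and -51.2 points over all bins. Dispersion estimated within bands of depth ranged from 1.43 to 2.01, where independent calls would give 1. With a dispersion per depth band 1264 members (50.1%) were called lower, against 87.1% of all bins tested. On simulated calls the p-values of unchanged bins ran somewhat low, so the counts of calls are liberal.

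The same held against the first day of the deletion, a comparison within Dnmt1 KO that no control library enters. Of 2109 members with at least 10 calls at day 1 and 20 at days 6 to 11, 790 (37.5%) were called lower, against 61.3% of all bins tested. None was called higher, against 0.011% of all bins. None was higher at an unadjusted p under 0.05, against 1 of 275, 0 of 10658 and 5 of 78473 comparison bins. The classes are again given from lowest to highest level, and this count did not set members apart from them. The level was lower in 1910 members (90.6%) irrespective of the test, against 96.4% of all bins tested, and the median member went from 30.3% to 6.45%.

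In single members the levels of Dnmt1 KO gathered near 0. Of 2674 members with at least 20 Dnmt1 KO calls at days 6 to 11, 1789 (66.9%) were under 10% and 410 (15.3%) had no methylated call, which at 20 calls allows a level of up to 15%. Quartiles were 2.94%, 6.49% and 12.0%. Only 9 members (0.337%) were over 40%. Of bins under 10% by the rule, 93.5% were under 10% in these Dnmt1 KO libraries. The share was 21.7% of bins over 40% and under 70%, and 4.12% of bins at 70% or more. Control members were spread more widely, with quartiles of 19.2%, 29.7% and 41.9% over 2877 members. Of these, 1854 (64.4%, exact 95% interval 62.7% to 66.2%) were again between 10% and 40% in the control libraries of days 6 to 11, 799 (27.8%) were over 40%, of which 48 were at 70% or more, and 224 (7.79%) were under 10%. The interval covers counting error only. Of bins under 10% by the rule, 43.4% were between 10% and 40% in these control libraries. The share was 9.87% of bins over 40% and under 70%, and 0.158% of bins at 70% or more.

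**Figure D4:**
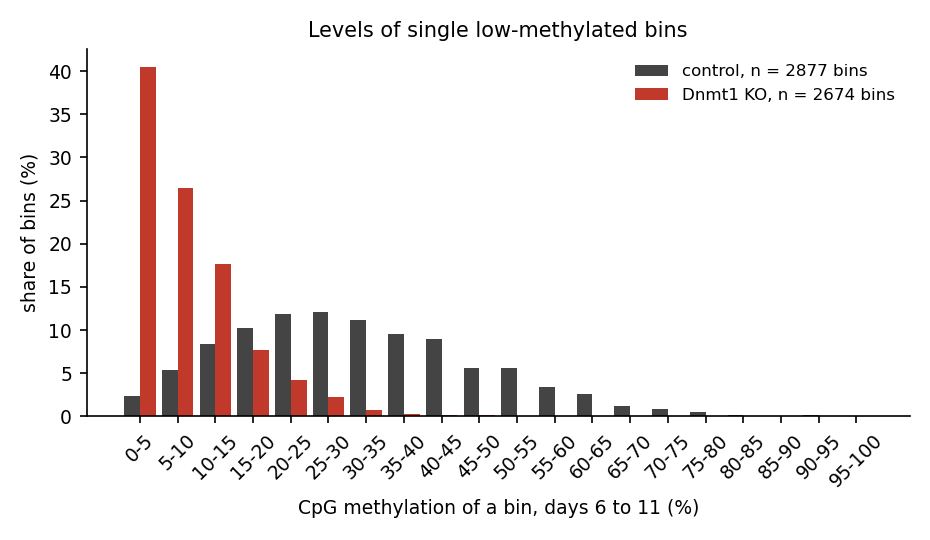
Share of the low-methylated bins (y axis, percent) in each 5-point class of CpG methylation (x axis) at days 6 to 11, over bins with at least 20 calls in control (2877) and in Dnmt1 KO (2674). Of the Dnmt1 KO bins, 40.5% were under 5%, against 2.36% of the control bins.

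Members were also compared by their place and by their number of cytosine positions. Members in gene bodies (1547, 49.5% of members) differed by -23.7 points in Dnmt1 KO and those between genes (1577) by -23.5 points (exact permutation test within day, p = 0.0278 for each, adjusted p = 0.0278). Members with 10 to 19 cytosine positions and with 20 to 39 differed by -23.5 and -23.6 points, at the same p, and by -12.6 and -21.9 points with at least 60 calls required by the rule. By distance from the nearest gene start, the share of the control level kept in Dnmt1 KO was 26.3% at 5 to 20 kb (1573 members), 26.9% at 20 to 50 kb, 26.3% at 50 to 100 kb and 27.3% beyond 100 kb (245 members). In bins at 70% or more the share kept was 36.4% at 5 to 20 kb and 39.8% beyond 100 kb. It also went from 32.5% at 10 to 19 positions to 40% at 35 to 39 positions in that class, whereas in members both position classes kept 27.3%. The differences among these classes were not tested.

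Members that were higher by the rule were also higher in the libraries the rule did not use. Members at 10% to 20% by the rule (623) were at 18.8% ± 2.11 (SD, n = 5) in control at days 6 to 11 and at 5.19% ± 0.818 in Dnmt1 KO. Those at 20% to 30% (971) were at 28.1% ± 4.08 and 7.16% ± 0.596, and those at 30% to 40% (1530) at 38% ± 4.31 and 10.1% ± 0.749. Around the lower limit of the rule, bins at 10% to 12% (91) were at 14.2% in control and 4.37% in Dnmt1 KO at days 6 to 11, and bins at 8% to 10% (86) at 14.9% and 3.21%. Around the upper limit, bins at 38% to 40% (371) were at 42.9% in control and kept 26.1% of it in Dnmt1 KO, and bins just over 40% and up to 42% (329) were at 43% and kept 25.5%.

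Members mostly stood alone. Of 3004 stretches of members, 2892 were a single bin, 104 were pairs and 8 were runs of 3, so 232 members (7.43%) lay beside another. Those 232 were at 25.5% ± 3.64 (SD, n = 5) in control and at 7.05% ± 1.61 in Dnmt1 KO, and the others at 31.2% ± 3.93 and 8.26% ± 0.557. Every autosome held members, from 1.63% of the bins that met the other criteria on chromosome 8 to 2.64% on chromosome 11. Chromosome 8 had the most such bins, 14893, and chromosome 2 the next most, 10104.

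Members were slightly richer in GC than highly methylated bins. Median GC content was 47.6% in members and 45.5% in bins at 70% or more, and the median number of CpGs per bin was 16 and 14. Members were closer to gene starts, with a median distance of 19742 bp against 29524 bp, but fewer of them lay in a gene body, 49.5% against 59.3%. These are features of sequence and position that the rule did not use except for the 5 kb limit and the range of cytosine positions.

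Motif letters of factors known from ESCs were counted in each 1 kb bin on both strands. ATGCAAAT, the octamer bound by POU factors such as OCT4 (Pou5f1), was in 7.46% of members, 5.78% of bins at 70% or more and 5.91% of all bins that met the other criteria. TCAAGGTCA, bound by the nuclear receptor ESRRB, was in 3.97%, 2.55% and 2.69%. GGGTGTGG, bound by KLF factors, was in 11.5%, 7.81% and 8.21%, and AGGGGGCNC, the core of the site of the insulator protein CTCF, in 4.58%, 2.13% and 2.35%. These 4 motifs were more frequent in members than in bins at 70% or more, also within GC content of 40% to 45%, 45% to 50% and 50% to 55%. At 45% to 50% GC, for example, the CTCF letters were in 4.18% of members and 2.21% of bins at 70% or more. In bins over 40% and under 70% the shares of the 4 motifs were 6.53%, 3.57%, 10.6% and 3.64%, nearer to those of the members. In bins under 10% they were 8.83%, 3.12%, 9.61% and 4.42%, and no difference between classes was tested. TCAGCACC, part of the site of the neuronal repressor REST, was in 5.28% of members and 5.19% of bins at 70% or more, and TGANTCA, bound by AP-1, in 26.0% and 27.3%. None of the 6 motifs contains another, and a match is no measure of binding.

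**Figure D5:**
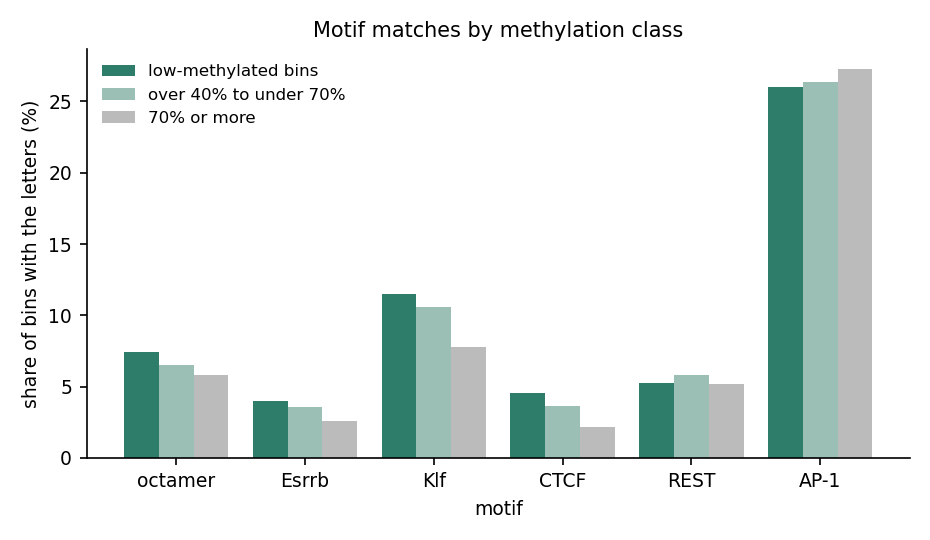
Share of 1 kb bins (y axis, percent) that held the letters of each of 6 motifs (x axis) on either strand, for the low-methylated bins and for bins over 40% and under 70% and at 70% or more. The CTCF letters were in 4.58% of members and 2.13% of bins at 70% or more, and the AP-1 letters in 26.0% and 27.3%.

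Levels were also compared between members with and without a motif match, with no test of the difference. The share of the control level kept in Dnmt1 KO was 25.8% with the octamer (233 members) and 26.6% without, 26.1% with the ESRRB letters (124) and 26.6% without, 28.0% with the KLF letters (360) and 26.4% without, and 28.1% with the CTCF letters (143) and 26.5% without. It was 26.8% against 26.5% for REST and 25.3% against 27% for AP-1. Control levels at days 6 to 11 were 28.5% with the octamer and 30.9% without, 27.2% with the ESRRB letters and 30.9% without, and 33.2% with the REST letters and 30.6% without, as means of the same 5 libraries.

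Some members lay near genes of the pluripotency network. Within 100 kb of the starts of 20 pluripotency genes lay 435 bins that met the other criteria, of which 27 (6.21%) were members, against 2.27% within 100 kb of any gene start. For 19 germ layer genes the share was 2.45% (9 of 368), and Sox1, also on that list, had no match in the gene models used. Of the 20 pluripotency genes, 12 had a member within this distance, against 6 of the 19 germ layer genes and 26.7% of 34653 gene starts. These shares are descriptions and were not tested. Gene starts were not matched for the number of bins around them that met the other criteria. A member could also count for different genes, as chr6:122619000-122619999 did for Nanog and Dppa3. Of the members, 7 lay around Nanog, the homeobox gene of naive pluripotency, 4 around Sall4, 3 each around Klf5 and Lefty1, and 0 around Sox2, Klf4 and Esrrb. The 27 members were at 29.9% ± 9.71 (SD, n = 5) in control at days 6 to 11 and at 8.02% ± 1.96 in Dnmt1 KO, which kept 26.8%. The 9 members near germ layer genes were at 26.0% ± 4.79 and 8.72% ± 4.09.

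Of the 10 most covered members near pluripotency genes, 4 were called lower in Dnmt1 KO and none higher, where 51.8% of members and 86.7% of all bins tested were called lower. Single libraries weighed on such values: among the 40 members chosen by the rules for named regions, leaving out 1 library moved the control level of 11 and the Dnmt1 KO level of 25 by over 1.5 times. Several lay close together in Slc2a3, a glucose transporter gene beside Nanog on chromosome 6. The member at chr6:122713000-122713999, in Slc2a3 and 55493 bp from the Nanog start, was at 46.0% of 63 calls in control and 2.56% of 39 calls in Dnmt1 KO (adjusted p = 0.00013, quasi-binomial test). Its control libraries had 1 of 3 methylated calls at day 6, 7 of 14 and 9 of 16 at day 9, and 6 of 14 and 6 of 16 at day 11. Its Dnmt1 KO libraries had 1 of 9 at day 6, 0 of 13 and 0 of 7 at day 9, and 0 of 2 and 0 of 8 at day 11. The member at chr6:122721000-122721999, also in Slc2a3, was at 47.7% of 65 calls in control and 4.17% of 24 calls in Dnmt1 KO (adjusted p = 0.00152). In contrast, chr6:122690000-122690999, a bin over an exon of Slc2a3 whose sequence is shown above, was already at 2.9% of 69 calls in control and had 0 of 49 calls in Dnmt1 KO, which allows up to 6.12%.

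Near Pou5f1, which encodes OCT4, the member at chr17:35681000-35681999 lay 38018 bp from its start and 7074 bp from that of Cdsn, a gene of skin corneocytes. It was at 39.1% of 46 calls in control and 6.0% of 50 calls in Dnmt1 KO (adjusted p = 0.00225, quasi-binomial test). Near Sall4, a zinc finger gene of ESCs, chr2:168585000-168585999 in the gene body was at 44.4% of 36 calls in control and 7.69% of 52 calls in Dnmt1 KO (adjusted p = 0.0022). Its groups overlapped, since control day 11 replicate 1 had 0 of 12 methylated calls and Dnmt1 KO day 6 had 4 of 19, which were all of its methylated Dnmt1 KO calls at days 6 to 11. A bin 30557 bp from the Sall4 start, chr2:168624000-168624999, was at 43.1% and 18.4% and did not pass the test (adjusted p = 0.0541). Control day 9 replicate 1 held 16 methylated of 19 calls there, and without it the control level was 18.8% of 32 calls. Near Klf5, chr14:99724000-99724999 was at 38.9% of 54 calls in control (19.4% of 36 calls without day 6) and 22.4% of 49 calls in Dnmt1 KO (adjusted p = 0.163), with control libraries that ranged from 0% to 77.8% and Dnmt1 KO libraries from 0% to 57.1%. Its groups overlapped.

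Runs of 3 adjacent members numbered 8, and the 5 with the most calls are described here. The run with the most calls lay in Uck2, a uridine-cytidine kinase gene, at chr1:169199000-169201999, 13259 bp from the gene start. It was at 13.8% of 123 calls in control at days 6 to 11, 20.9% of 67 calls in Dnmt1 KO at day 1 and 4.69% of 128 calls at days 6 to 11. Control day 6 held 10 of the 17 methylated control calls, and without it the control level was 7.69% of 91 calls. None of the 3 bins of this run was called lower (adjusted p = 0.13, 0.674 and 0.12, quasi-binomial test). A run in Cdh1, which encodes the epithelial cadherin that holds ESC colonies together, at chr8:109143000-109145999 had 12 methylated of 108 calls in control and 4 of 90 calls in Dnmt1 KO. A run in Ahi1 at chr10:20774000-20776999 was at 6.62% of 136 calls in control and 15% of 60 calls in Dnmt1 KO, and the 2 of its bins that could be tested did not pass (adjusted p = 0.7 and 0.0905). Of its 9 methylated Dnmt1 KO calls, 6 came from the 11 calls of day 9 replicate 1, and without that library the run had 3 methylated of 49 calls (6.12%). Its bin at chr10:20775000-20775999 was called higher in Dnmt1 KO when the test was stratified by day or by replicate number. The run nearest Gm7241, chr1:134160000-134162999, was at 43.1% of 102 calls in control and 12.2% of 115 calls in Dnmt1 KO, and 2 of its 3 bins were called lower. The run in Zfp532 at chr18:65745000-65747999 was at 27.2% of 114 calls in control and 7.37% of 95 calls in Dnmt1 KO, with 1 bin called lower.

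Once the 8 deep members were left out, the 5 members with the most calls included some whose levels were close in the genotypes. At chr9:115266000-115266999, near the miRNA gene Mir467h, levels were 6.36% of 110 calls in control and 4.69% of 64 calls in Dnmt1 KO. At chr14:54941000-54941999, near the olfactory receptor gene Olfr49, they were 15.6% of 90 calls and 14.1% of 71 calls. At chr8:85965000-85965999, in Scoc, they were 11.5% and 2.67% (adjusted p = 0.0847). The remaining pair of these 5 was called lower. At chr4:146823000-146823999, near the pseudogene Vmn2r-ps19, levels were 12.0% of 117 calls in control and 0 of 99 calls in Dnmt1 KO, which allows up to 3.03% (adjusted p = 0.00152). At chr18:37098000-37098999, in the clustered protocadherin gene Pcdha11, they were 44.4% of 63 calls and 5.05% of 99 calls (adjusted p = 1.1e-05).

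The 5 members with the lowest p were picked by the test itself, and all stood higher in pooled control calls at days 6 to 11 than on the days used by the rule. The lowest was chr8:109634000-109634999, between genes and 8011 bp from the start of C630050I24Rik, at 38.5% by the rule, 74.2% of 66 calls in control at days 6 to 11 and 10.3% of 58 calls in Dnmt1 KO (adjusted p = 1.51e-07, quasi-binomial test). Its control libraries had 18 of 18 methylated calls at day 6, 11 of 19 and 3 of 5 at day 9, and 1 of 4 and 16 of 20 at day 11. Its Dnmt1 KO libraries had 1 of 20 at day 6, 1 of 7 and 0 of 5 at day 9, and 0 of 8 and 4 of 18 at day 11. Every control library was above every Dnmt1 KO library. In Fgf14, a gene of the fibroblast growth factor family, chr14:124594000-124594999 was at 72.5% of 40 calls in control and 2.13% of 47 calls in Dnmt1 KO (adjusted p = 1.93e-07). The other 3 lay near Psmd7, in Agtr1a and near C1qb, at 56.9%, 70.9% and 79.5% in control and at 2.94%, 10% and 5.56% in Dnmt1 KO. Near Psmd7, control day 11 replicate 1 had 19 of 20 methylated calls, and without it the control level was 36.8% of 38 calls.

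A few members had a high level in Dnmt1 KO at days 6 to 11. The highest was chr7:66314000-66314999, whose nearest start, 169123 bp away, was that of Ube3a, an imprinted ubiquitin ligase gene. It was at 48.1% of 27 calls in control and 57.1% of 28 calls in Dnmt1 KO at days 6 to 11 (adjusted p = 0.608), with calls in 3 libraries of each genotype. Dnmt1 KO had 1 of 9 methylated calls at day 1. The bin held 23 CpGs, against a median of 16 per member, and parts of the sequence shown above recur within it. Its Dnmt1 KO libraries had 3 of 5 methylated calls at day 6, and 1 of 5 and 12 of 18 at day 11. Near Hs6st3, chr14:119522000-119522999 was at 40% and 45.8% (adjusted p = 0.754), with 10 of its 11 methylated Dnmt1 KO calls in a single library of day 11. That bin was CpG-dense, with 41 CpGs but 36 listed positions. Its densest 300 bases held 33 CpGs in a short repeated unit. In Plch1, chr3:63587000-63587999 was at 79.5% and 53.3% (adjusted p = 0.0674), with Dnmt1 KO calls in only 2 libraries. In Prkce, chr17:86833000-86833999 was at 94.4% of 36 calls in control and 45.5% of 33 calls in Dnmt1 KO, and it was called lower (adjusted p = 0.000492). These members were picked for their Dnmt1 KO level, so those levels are a description.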

How the data were processed

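CpG methylation was analysed in 18 whole-genome bisulfite libraries. Per their methods, the authors trimmed reads with Trim Galore, mapped them with Bismark to NCBIM37, removed duplicates and extracted CpG calls. The submitters' processing notes name Bismark 0.12.3, and the methods another version. The deposited tables gave counts of methylated and unmethylated calls and a percent per cytosine, which was not used further. Any minimum coverage of the deposited tables is not given in the sources used here. Calls of both strands were summed in 1 kb bins, with gene starts from GENCODE models of the same build.

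The members, gene lists, motifs and tests were chosen with earlier results of these data known. Named regions were the 5 longest runs of members (ties by calls), then, with 8 deep members left out, the 5 members with the most calls, the 5 with the lowest p, the 5 with the highest Dnmt1 KO level (1 of them is not reported here), and up to 10 within 100 kb of a pluripotency gene start. Tfcp2l1 was matched through its older symbol.

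Levels were compared by exact permutation within day, and bins by a quasi-binomial test with a shared dispersion of 1.6 (1.65 within Dnmt1 KO) and Benjamini-Hochberg adjustment over all bins tested. Python 3.11.15, numpy 2.4.6, pandas 2.3.3, scipy 1.17.1 and, for alternatives, limma 3.58.1 in R 4.3.3 were used. The bin test was tested on simulated data, where p-values of unchanged bins ran somewhat low. Libraries held 7190722 to 11158414 calls. Intervals are exact (Clopper-Pearson) and cover counting error only, since calls of a read are not independent. Alternatives changed the rule, depth, gene starts, dispersion, pairing and libraries.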

Additional observations from a re-analysis of the deposited data

Results flagged for a closer look

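Between some days the members moved in opposite directions in the genotypes, in every pair of libraries. From day 3 to day 6 the level was higher by 9.72 points in control and lower in Dnmt1 KO, at -4.16 points. From day 6 to day 9 it changed by -3.85 points in control and by 1.03 points in Dnmt1 KO. From day 6 to day 11 the changes were -8.96 points and 1.29 points. Each of these differences between genotypes rests on the lone libraries of day 6 and was not tested, and control day 3 was used to choose the bins. The means of the comparison classes moved in the same opposite directions. In bins at 70% or more, for example, control went from 84.9% at day 3 to 87.1% at day 6. Dnmt1 KO went from 40.4% to 31.3% there.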

How the results depend on the processing

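Every permutation result kept its direction under all alternatives run, while the test lost its call where the design could no longer reach 0.05. Without either library of day 6, the smallest possible p was 0.0556, and the differences were -21.1 points for the members (range without 1 library -24.5 to -21.1), -0.44 relative to bins at 70% or more (-0.62 to -0.44) and -0.27 relative to flanks (-0.40 to -0.27), on the log2 scale for both ratios. The same ranges were -24.3 to -21.0 points in gene bodies, -24.8 to -21.2 between genes, -27.8 to -20.6 for 10 to 19 positions and -24.4 to -21.1 for 20 to 39. Deviations of single bins correlated little between same-numbered libraries (correlations between -0.00814 and 0.00624). With so few calls per bin, these correlations cannot tell whether the replicate numbers pair the libraries. With the number as a replicate block the differences were -23.6 points, -0.57, -0.37, -23.7 in gene bodies, -23.5 between genes, -23.5 and -23.6 by position class, at the smallest possible p of 0.0625. With at least 60 calls in the rule, the flank ratio was -0.42 (exact permutation p = 0.0833), the only loss of a call that the design did not force, and the difference for 10 to 19 positions was -12.6 points. The cause was not tested. The share of members again at 10% to 40% was 66.9% with at least 60 calls in the rule, 69.7% where day 1 and day 3 each had to be in the range, 66.9% with 40 calls, and 61.6% to 66.0% without 1 library. Members called lower numbered 70 of 129 tested with at least 60 calls in the rule, against 1307 of 2524 in the main setting. They numbered 365 of 733 with both days in the range, 655 of 1241 beyond 20 kb, and 358 of 662 with 40 calls per group. Without 1 library they numbered 596 to 1158 (762 of 1326 tested and 596 of 1111 without control day 1 replicates 1 and 2, 736 of 1342 and 701 of 1291 without control day 3 replicates 1 and 2). The number of members tested changed with these settings as well. Against Dnmt1 KO day 1, members called lower numbered 198 of 474 tested with 20 and 40 calls, against 790 of 2109 in the main setting. Without 1 library they numbered 234 to 684 (349 of 1167 and 234 of 832 without Dnmt1 KO day 1 replicates 1 and 2). Members called higher numbered 0 or 1: 1 without control day 6 replicate 1 (chr5:129662000-129662999), 1 without control day 9 replicate 1 (chr17:57236000-57236999), and 1 (chr10:20775000-20775999, in Ahi1) with the replicate block and with day strata. The flanks without deep bins, a dispersion by depth and the levels of named regions without 1 library were chosen after seeing the data.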
